A study of Mus musculus with 27 samples.

Results

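Adm, Calcrl, Ramp1, Ramp2 and Ramp3 encode the peptide adrenomedullin, its receptor and the proteins that pair with that receptor. They were chosen by symbol as 5 of the 40129 genes in the deposited table, and all 5 passed the filter on low values. The table holds bulk RNA sequencing of retinas from wildtype C57BL/6 mice (C57BL/6J in the study's methods) in the oxygen-induced retinopathy (OIR) model. OIR pups breathed 75% oxygen from postnatal day (p) 7 to p12, which makes central retinal vessels regress, and then returned to room air. At p14 the retina of such mice is ischaemic, and at p17 new vessels grow out of it. Control pups (nOIR) stayed in room air throughout and were killed at the same ages, so no group carried a transgene or a drug. By the labels there were 7 nOIR and 6 OIR mice at p14, and 6 nOIR and 8 OIR mice at p17. Following the study's methods, nOIR p14 mouse S4 was left out because of lens RNA, which left 6 nOIR p14 mice and 26 mice in all. A library was made from 1 retina or from both retinas of a mouse, and the labels do not say which, nor do they give litter or sex. By the study's methods, pups of both sexes were used and every group had fewer litters than mice, fewest among the nOIR p17 controls, so littermates are counted as separate mice in every test.

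Adrenomedullin is a secreted peptide that dilates vessels, tightens and stabilises endothelium and promotes vessel growth, and its gene is a known target of hypoxia-inducible factors. CALCRL is a G protein-coupled receptor that reaches the cell surface only with a receptor activity-modifying protein (RAMP), and the RAMP decides which ligand it prefers. With RAMP2 or RAMP3 it is a receptor for adrenomedullin, and with RAMP1 it is the receptor for calcitonin gene-related peptide (CGRP). Receptor activation mainly raises cAMP through Gs. In vessels CALCRL and RAMP2 are typical of endothelium, while RAMPs also occur in neurons and vascular smooth muscle, where they serve other receptors too.

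Values are normalized reads, that is, read counts divided by 1 size factor per mouse. The whole reads recovered from them totalled 17029536 to 33593428 per mouse, with a median of 30024568 over 27 mice, and the lowest total was that of OIR p17 mouse S1. The photoreceptor genes Nrl, Crx, Rcvrn and Pde6b summed to between 149479 and 220811 normalized reads in the compared mice, so the labelled tissue was present in each. Lens genes were also found in every group, with sums from 34.6 to 28384 normalized reads for 6 genes. The excluded mouse S4 had 14922, whereas a retained nOIR p14 mouse reached 15841, so S4 was not the highest. With log2 of the lens gene Cryaa as a covariate, an alternative added after the data were seen, no call on the 5 genes changed. A log2 change is a difference of log2(normalized reads + 1), with its standard error (SE) from limma fitted to all 4 groups, and it was called at an adjusted p under 0.05 over the 27137 genes tested. A gene was a DEG if the log2 change was also above 2 or below -2. The comparisons at p14 and p17 had no mouse in common, but the comparisons between ages and the difference between the effects reused the same groups.

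The stretch before the start of Adm, the gene that moved most, is shown beside that of Ramp1, which moved the other way. Each is 250 bases long, read 5′ to 3′ on the gene's strand, from RefSeq on GRCm38.p6. Adm lies on the plus strand at chr7:110627407-110627656 and Ramp1 on the plus strand at chr1:91179572-91179821, and capitals mark CACGC, the reverse complement of GCGTG.
Adm: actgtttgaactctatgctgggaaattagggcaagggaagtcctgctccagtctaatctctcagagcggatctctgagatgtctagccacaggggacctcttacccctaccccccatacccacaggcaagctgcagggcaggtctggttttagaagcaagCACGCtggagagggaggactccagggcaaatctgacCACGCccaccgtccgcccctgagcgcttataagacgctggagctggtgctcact
Ramp1: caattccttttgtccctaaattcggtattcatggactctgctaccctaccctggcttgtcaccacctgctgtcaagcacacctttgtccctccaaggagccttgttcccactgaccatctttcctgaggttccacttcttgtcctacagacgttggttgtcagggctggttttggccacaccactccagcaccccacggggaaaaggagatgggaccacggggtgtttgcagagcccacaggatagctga
The motifs searched were ACGTG and GCGTG, the core letters of the hypoxia response element, on both strands, and a match is a description and not a bound site. The Adm stretch held GCGTG 2 times on the reverse strand, with the first base of each match 90 and 54 bases before the start. The Ramp1 and Calcrl stretches held 0 matches and that of Ramp3 held 2. At least 1 match was present in 12679 of 32851 such stretches (38.6%), so these letters are common. Ramp2 was not matched to a stretch.

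Adm was upregulated in OIR retinas at both ages, by 8.20-fold at p14 and by 46.0-fold at p17. At p14 its normalized reads were 34.7 at the lowest, 65.4 at the median and 100.2 at the highest in nOIR mice. In OIR p14 mice they were 280.0, 521.6 and 912.6. At p17 nOIR mice had 16.5, 30.2 and 44.2, whereas OIR mice had 957.7, 1276 and 1932. Every OIR mouse lay above every control of its age, and the lowest OIR p17 mouse was above the highest OIR p14 mouse. The log2 change was 3.03 ± 0.26 (SE, adjusted p = 8.12e-09, 6 mice against 6) at p14, with a 95% confidence interval of 5.65- to 11.9-fold. At p17 it was 5.52 ± 0.24 (SE, adjusted p = 6.72e-16, 8 mice against 6), with an interval of 32.5- to 65.1-fold. Adm met the DEG thresholds both times, as did 0.744% of the genes tested in the upward direction at p14 and 1.90% at p17. By p-value it ranked 7 of the 862 genes called higher at p14 and 4 of the 2005 called higher at p17, and by size of change 49 and 11. The exact permutation test, two-sided, gave p = 0.00216 at p14 and p = 0.000666 at p17, the smallest values it can give for these group sizes.

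The Adm difference grew with age from both sides. From p14 to p17, OIR mice rose by 1.31 ± 0.24 (SE, adjusted p = 0.000786) on the log2 scale, with all 8 OIR p17 mice above all 6 OIR p14 mice. Control mice went the other way, by -1.18 ± 0.26 (SE, adjusted p = 0.0388), and 5 of the 6 nOIR p17 mice lay below every nOIR p14 mouse. The decline in controls was lost in 6 of 13 other settings of the analysis and when any one of 11 mice was left out, with adjusted p up to 0.148. The effect at p17 exceeded that at p14 by 2.49 ± 0.36 (SE, adjusted p = 8.22e-05). In order of level, OIR p17 came first with a mean of 1367 ± 359 normalized reads (SD), followed by OIR p14 with 574.5 ± 226.7, nOIR p14 with 68.0 ± 22.8 and nOIR p17 with 29.2 ± 9.63. Both control groups overlapped in range.

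**Figure D1:**
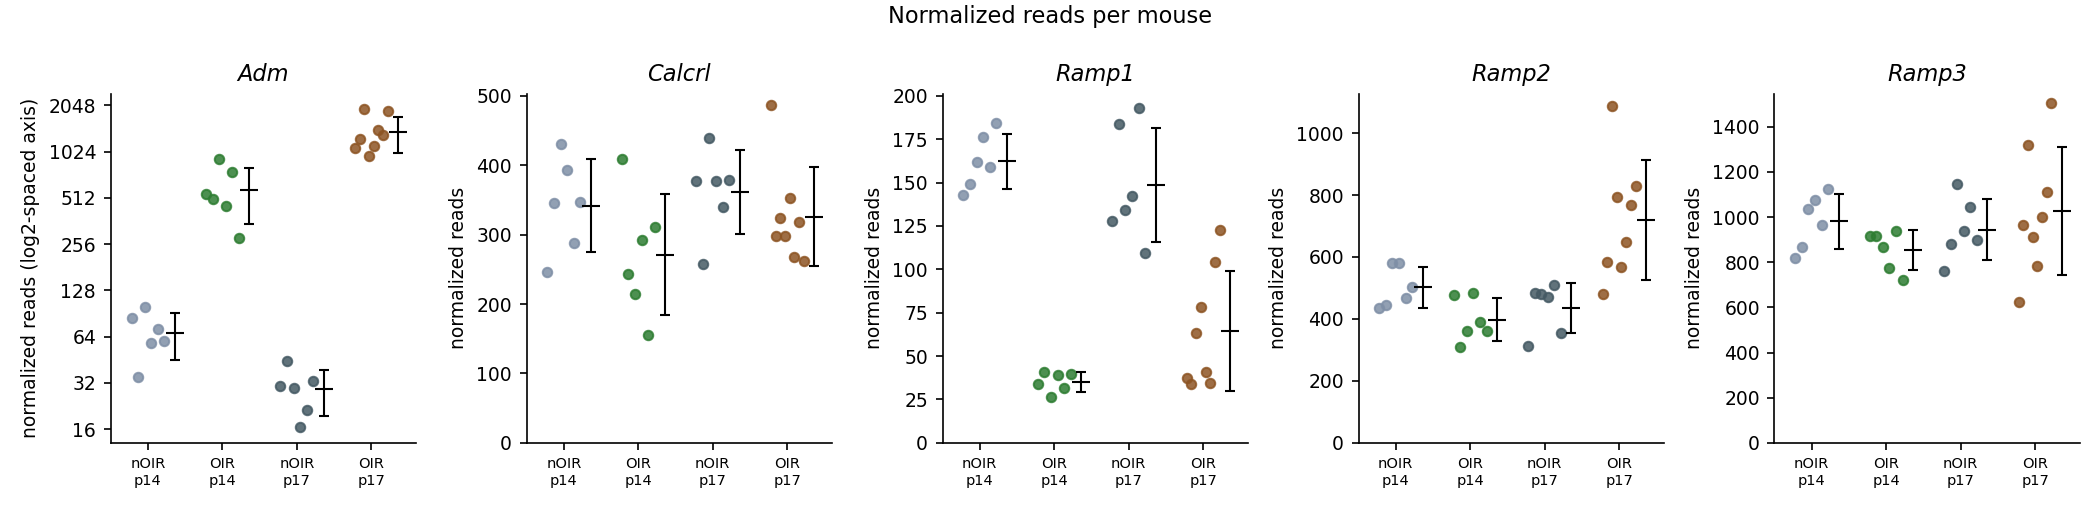
Normalized reads of each gene (vertical axis, log2-spaced for Adm and linear from 0 for the others) in each of 26 mice by group, as points, with the group mean and SD in black. Adm separates the groups without overlap between OIR and nOIR, Ramp1 is lower in OIR mice with a spread of 33.6 to 122.6 at p17, and Calcrl and Ramp3 overlap throughout.

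Calcrl, the receptor itself, showed no called change at either age. At p14 its normalized reads were 246.8, 346.0 and 429.9 (lowest, median and highest) in nOIR mice and 156.0, 268.2 and 408.6 in OIR mice. At p17 they were 257.3, 376.9 and 438.8 in nOIR mice and 262.1, 308.5 and 486.9 in OIR mice. Both pairs of groups overlapped over most of their range. The log2 change was -0.37 ± 0.19 (SE, adjusted p = 0.310) at p14, with a 95% interval of -0.75 to 0.01. At p17 it was -0.16 ± 0.17 (SE, adjusted p = 0.672), with an interval of -0.51 to 0.20. In that fit a change of 1.5-fold in either direction lies outside the interval. Without nOIR p17 mouse S2 the change was -0.25 ± 0.18 (SE), so this limit does not hold for every set of mice. In order of mean level, nOIR p17 had 361.6 ± 60.1 normalized reads (SD), nOIR p14 341.7 ± 66.9, OIR p17 326.1 ± 71.3 and OIR p14 271.0 ± 87.3, and no 2 neighbours in this order differed by more than their SD.

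Ramp1, the partner that turns CALCRL into the CGRP receptor, was downregulated in OIR retinas at both ages. At p14 its normalized reads were 143.0, 160.3 and 184.2 in nOIR mice and 26.2, 36.6 and 40.8 in OIR mice. All 6 OIR p14 mice lay below all controls, and the SD within each group was small beside the gap (162.1 ± 15.7 against 35.2 ± 5.67). The log2 change was -2.18 ± 0.26 (SE, adjusted p = 1.55e-06), or 4.54-fold lower, which met the DEG thresholds, as did 0.140% of the genes tested in the downward direction. By p-value Ramp1 ranked 15 of the 790 genes called lower at p14. The exact permutation test gave p = 0.00216.

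At p17 Ramp1 had 109.4, 138.3 and 193.0 normalized reads in nOIR mice and 33.6, 52.2 and 122.6 in OIR mice. The log2 change was -1.33 ± 0.25 (SE, adjusted p = 0.000237), or 2.52-fold lower, and 7 of 8 OIR mice lay below all controls. It did not reach the DEG size, which 0.173% of the genes tested did in the downward direction. OIR p17 mice differed widely from one another, with 37.3, 33.6, 63.4, 78.4, 40.9, 34.7, 104.3 and 122.6 normalized reads in mice S1 to S8. Mouse S8 was the one that overlapped with the controls. In OIR mice the step from p14 to p17 was 0.70 ± 0.25 (SE, adjusted p = 0.0981), and the effect at p17 minus that at p14 was 0.85 ± 0.36 (SE, adjusted p = 0.367), so neither was called by limma. On the recovered reads, edgeR and DESeq2 did call the step in OIR mice, with adjusted p = 0.0391 and 0.0116. The excluded mouse S4 of nOIR p14 had 93.2 normalized reads, below the other controls of its age, and with it the p14 effect was still called.

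Ramp2, a partner of CALCRL in its adrenomedullin receptors, rose at p17, while its lower mean in OIR mice at p14 was not called. At p14 its normalized reads were 434.2, 485.3 and 581.7 in nOIR mice and 308.1, 376.4 and 484.3 in OIR mice. At p17 nOIR mice had 312.7, 475.4 and 508.4, and OIR mice had 480.7, 707.4 and 1089. At p17, 7 of 8 OIR mice lay above all controls, and the exception was S1, the mouse with the fewest reads. The log2 change at p17 was 0.71 ± 0.15 (SE, adjusted p = 0.00142), or 1.63-fold, with a 95% interval of 1.31- to 2.02-fold. At p14 it was -0.35 ± 0.16 (SE, adjusted p = 0.274), while the exact permutation test, which is not adjusted over all genes, gave p = 0.0281. The effect at p17 minus that at p14 was 1.05 ± 0.22 (SE, adjusted p = 0.00815), and OIR mice rose from p14 to p17 by 0.83 ± 0.15 (SE, adjusted p = 0.000644).

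Some limits apply to Ramp2. Its exons share 1103 of 3301 bases (33.4%) with exons of Vps25 on the same strand in GENCODE M21, so reads there cannot be assigned to 1 gene and its level per kilobase is uncertain. Vps25, a subunit of the endosomal sorting machinery, changed by 0.25 ± 0.34 (SE, adjusted p = 0.743) at p17. Within groups, Ramp2 varied with ribosomal protein genes, whose mean log2 level over 72 genes ran from 9.54 to 10.70 in OIR p17 mice and from 9.73 to 10.25 in nOIR p17 mice. With that mean as a covariate, an alternative chosen after the data were seen, the Ramp2 effect was 0.56 (adjusted p = 9.75e-05) at p17. The same fit called the p14 effect, at -0.39 (adjusted p = 0.0129).

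Ramp3, the other adrenomedullin partner, showed no called change. At p14 its normalized reads were 816.9, 1000 and 1126 in nOIR mice and 719.9, 891.7 and 937.8 in OIR mice. At p17 they were 759.8, 918.6 and 1146 in nOIR mice and 622.2, 984.3 and 1504 in OIR mice, which spanned the whole control range. The log2 change was -0.20 ± 0.15 (SE, adjusted p = 0.580) at p14 and 0.09 ± 0.14 (SE, adjusted p = 0.793) at p17. The 95% interval at p17 was -0.20 to 0.37. Its exons overlap those of Gm11978 on the opposite strand over 101 of 1380 bases (7.32%), and without strand such reads cannot be told apart.

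**Figure D2:**
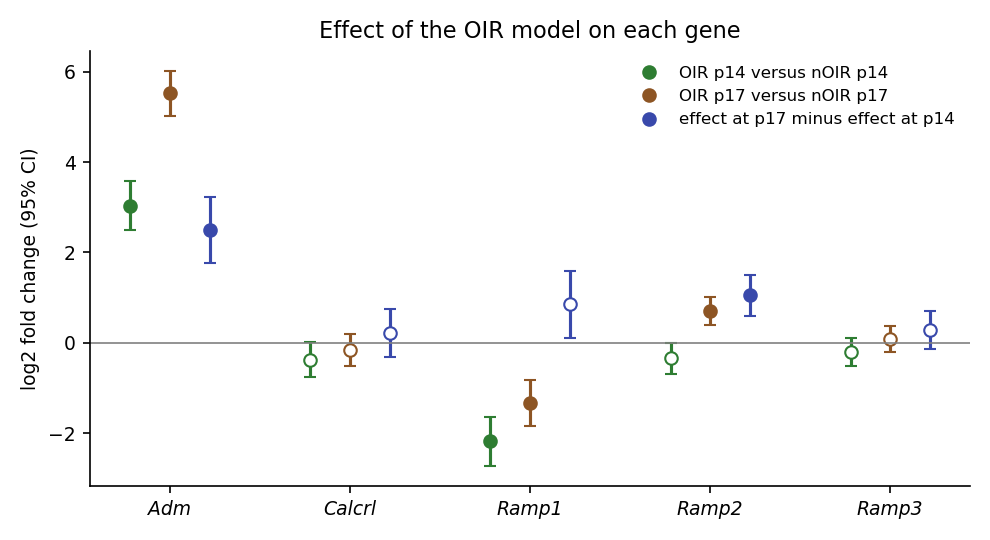
Log2 change of each gene with its 95% confidence interval (vertical axis) in OIR against nOIR mice at p14 (green) and p17 (brown), and the difference between both effects (blue), with filled points for an adjusted p under 0.05. Adm lies at 3.03 and 5.52, Ramp1 at -2.18 and -1.33, and Ramp2 is called at p17 and for the difference.

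Of the 5 genes, 1 was called higher and 1 lower at p14, against 3.18% and 2.91% of all genes tested. At p17, 2 were called higher and 1 lower, against 7.39% and 5.12%. For the difference between the effects, 2 were called higher and 0 lower, against 1.43% and 0.147%. Within OIR mice between the ages 2 were called higher and 0 lower, against 4.11% and 1.81%, and within controls 0 higher and 1 lower, against 0.158% in either direction. The median log2 change over all genes tested was 0.02 at p14 and -0.02 at p17. These shares and medians are also the ones to set beside the counts for the gene lists below.

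Levels were set against each other per kilobase of merged exons (GENCODE M21, another release than the authors' M28). In control mice at p17, Ramp3 stood highest with 684.4 ± 97.4 (SD) normalized reads per kilobase, followed by Ramp2 with 131.8 ± 24.5, Calcrl with 74.1 ± 12.3, Ramp1 with 49.1 ± 10.9 and Adm with 18.1 ± 5.95. Each step in that order exceeded the SD of both neighbours. That SD is the spread between mice and does not cover the merged exon lengths, on which the order also rests. For Ramp2 the length is uncertain because of the exons shared with Vps25. In OIR p17 mice Adm reached 844.7 ± 221.9 normalized reads per kilobase, which did not differ from Ramp3 (745.1 ± 205.1) by more than the SD. Ramp2 followed with 218.1 ± 58.4, Calcrl with 66.8 ± 14.6 and Ramp1 with 21.3 ± 11.4. Adm was thus the lowest of the 5 transcripts in controls at both ages, with 42.0 ± 14.1 against 53.7 ± 5.19 for Ramp1 at p14, where the ranges of both genes overlapped.

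The balance among the RAMPs was followed as log2 ratios within each mouse, which need no gene length. The log2 ratio of Ramp1 to Ramp2 fell from -1.62 ± 0.14 (SD) in nOIR p14 mice to -3.46 ± 0.35 in OIR p14 mice. At p17 it went from -1.55 ± 0.22 to -3.59 ± 0.56. The difference was -1.84 at p14 (exact permutation test, p = 0.0026 adjusted over 6 comparisons) and -2.04 at p17 (p = 0.00133 adjusted by the same exact test), with no overlap between groups at either age. The log2 ratio of Ramp3 to Ramp1 rose accordingly, by 1.99 at p14 and 1.42 at p17, again without overlap (exact permutation test, adjusted p = 0.0026 and 0.00133).

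Between the 2 adrenomedullin partners the balance differed at p17. The log2 ratio of Ramp3 to Ramp2 was 1.13 ± 0.19 (SD) in nOIR p17 mice and 0.51 ± 0.22 in OIR p17 mice, and every OIR mouse lay below every control, although the nearest of them stood at 0.858 and 0.864. The difference was -0.62 (exact permutation test, adjusted p = 0.00133). At p14 the same ratio was 0.97 ± 0.12 in nOIR and 1.12 ± 0.31 in OIR mice, a difference of 0.15 (exact permutation test, adjusted p = 0.303). These ratios compare transcripts in whole retina, and bulk RNA cannot tell fewer cells of a type from less RNA per cell.

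**Figure D3:**
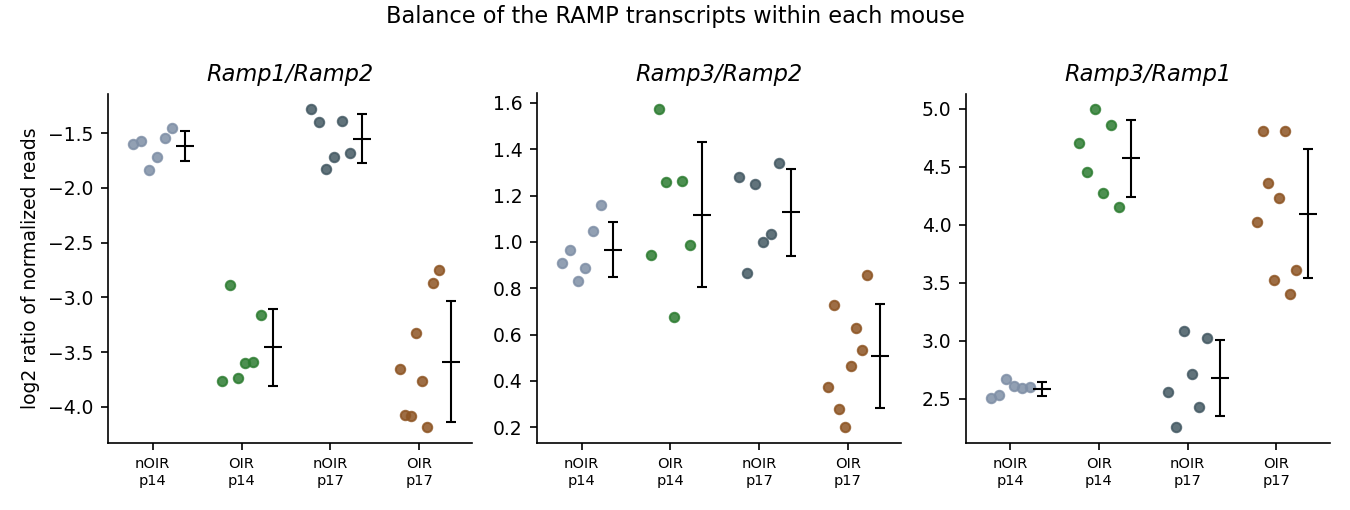
Log2 ratio of normalized reads between pairs of RAMP genes (vertical axis) in each mouse by group, with the mean and SD in black. Ramp1/Ramp2 is lower in OIR mice at both ages, with differences of -1.84 and -2.04, while Ramp3/Ramp2 separates OIR from nOIR mice at p17.

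Because Calcrl and Ramp2 are known from endothelium, each gene was also read beside the mean log2 level of 12 endothelial genes of the same mouse. Of these 12 genes, 10 rose and 0 fell at p17, with a median log2 change of 1.35, and Tek (0.29) and Kdr (0.20) did not pass the test. At p14, 2 rose and 1 fell, with a median of -0.18. Their summed level was 9871 to 11445 normalized reads in nOIR p17 mice and 14355 to 18331 in OIR p17 mice. Mural genes moved likewise, with 10 of 10 higher at p17 (median log2 change 1.83) and 2 higher and 4 lower at p14. None of the endothelial or mural genes was at 0 throughout a group. Of the other cell type lists, 3 of 3 astrocyte genes, 5 of 6 microglia and macrophage genes and 3 of 4 blood genes rose at p17, whereas 2 of 7 Müller glia genes rose and 4 fell, and 0 of 7 genes of the retinal pigment epithelium and choroid and 0 of 6 lens genes were called. At p14, 2 of 3 astrocyte genes and 1 of 6 microglia and macrophage genes rose, 1 of 7 Müller glia genes rose and 4 fell (median log2 change -0.52), and 0 genes of the blood, lens or pigment epithelium lists were called. Of the photoreceptor genes Nrl, Crx, Rcvrn and Pde6b, 0 were called at p14, and Pde6b fell by 0.24 (adjusted p = 0.0245) on the log2 scale at p17. The part of these cells in the changes of the 5 genes was not tested.

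The endothelial mean itself changed by 1.22 on the log2 scale at p17 and by -0.16 at p14, so a gene without any change would stand at -1.22 at p17 once the mean is subtracted. These differences therefore say how each gene moved beside the endothelial genes, not whether it moved, and separation from the controls at p17 follows from the subtraction for a steady gene. Relative to the endothelial mean, Calcrl went from -0.03 ± 0.28 (SD) in nOIR p17 mice to -1.40 ± 0.28 in OIR p17 mice, a difference of -1.37 beside its own change of -0.16. For Ramp3 the difference was -1.13 beside its own change of 0.09, and for Ramp1 -2.55 beside -1.33. Ramp2 rose, but by less than the endothelial mean, with a difference of -0.51 (exact permutation test, p = 0.0266 adjusted over 10 comparisons), and the groups overlapped. That call was lost when any one of nOIR p17 mice S2, S3, S4 or S5 was left out, with adjusted p up to 0.0555. With Kdr, Flt1, Tek and Tie1 taken off the endothelial list, the difference was larger, at -0.78 (exact permutation test, adjusted p = 0.00309). A shorter list changes the subtracted mean for every gene alike, and a gene without change no longer stands at -1.22. Calcrl then gave -1.64 and Ramp3 -1.40, so the shift is not particular to Ramp2. Adm rose by more than the endothelial mean, with a difference of 4.31 (exact permutation test, adjusted p = 0.00167).

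At p14, where a gene without any change would stand at 0.16, the differences were 3.20 for Adm, -2.02 for Ramp1, -0.21 for Calcrl, -0.19 for Ramp2 and -0.04 for Ramp3. How far a change in the share of endothelial cells enters these values was not tested.

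**Figure D4:**
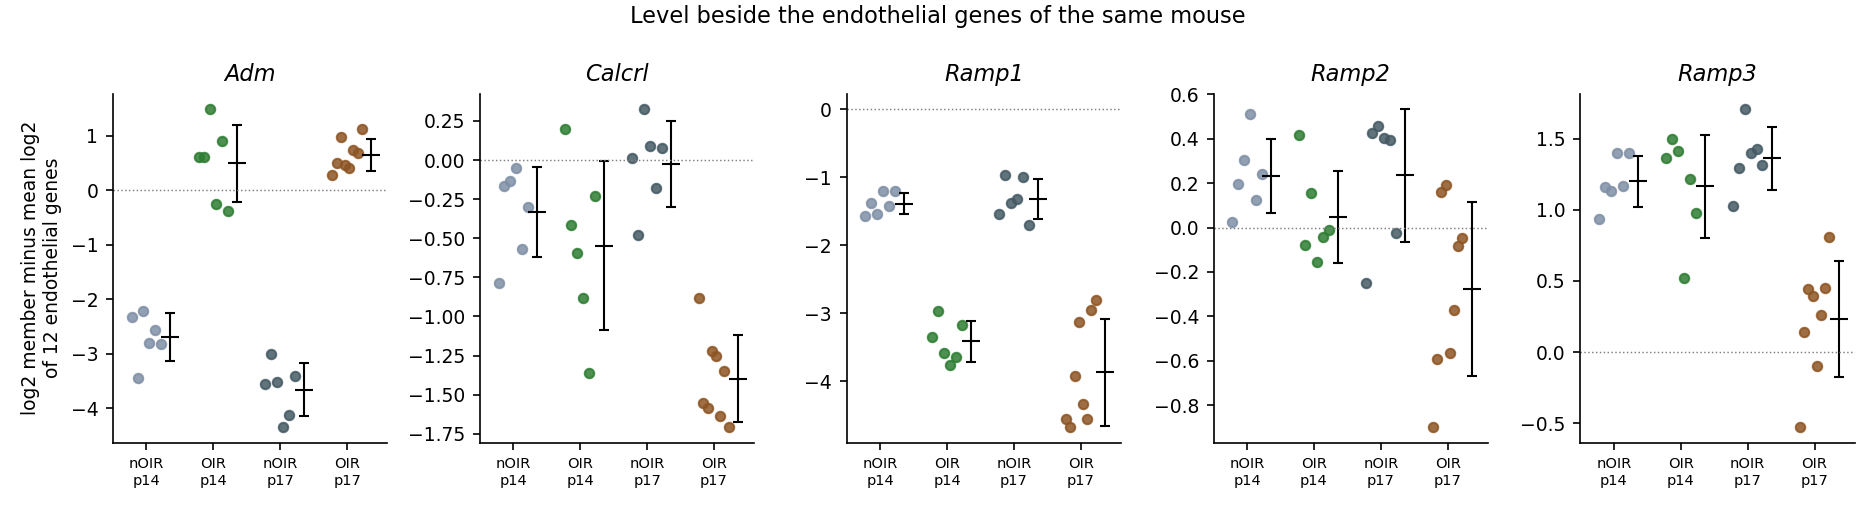
Log2 level of each gene minus the mean log2 level of 12 endothelial genes in the same mouse (vertical axis), by group, with the mean and SD in black and a dotted line at 0. At p17 a gene without change would lie 1.22 lower in OIR than in nOIR mice, and Calcrl and Ramp3 differ by -1.37 and -1.13, Ramp2 by -0.51 and Adm by 4.31.

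Of 4 other ligands of the family, Iapp was too low to test. Adm2, which encodes intermedin, a peptide that also acts through CALCRL, rose at both ages by 2.08 (adjusted p = 0.0117) at p14 and 3.44 ± 0.48 (SE, adjusted p = 4.32e-06) at p17 on the log2 scale. Its mean at p17 was 0.18 normalized reads in controls and 12.7 in OIR mice, so close to 0 in controls that the pseudocount of 1 sets the size of these log2 changes and understates them. The CGRP genes Calca and Calcb fell at p14, by 0.95 (adjusted p = 0.0464) and 1.92 (adjusted p = 0.0324) on the log2 scale, and their means in the controls of that age were 82.2 and 6.37 normalized reads. Neither was called at p17, at -0.08 (adjusted p = 0.912) for Calca and -1.29 (adjusted p = 0.109) for Calcb. Ramp1 and both CGRP genes were therefore lower in OIR mice at p14, and Ramp1 alone was called at p17.

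Of 3 other receptors and partners, 0 were called at p14 and 1 at p17. That was Ackr3, a scavenger receptor that removes adrenomedullin, which rose by 0.79 ± 0.22 (SE, adjusted p = 0.0169). The calcitonin receptor gene Calcr (-0.61, adjusted p = 0.706) and Crcp, a receptor component protein (0.04, adjusted p = 0.860), were not called at p17. Of 5 genes for processing, binding and clearance, Pam, the enzyme that amidates adrenomedullin at its end, fell at both ages, by 0.56 (adjusted p = 0.0219) at p14 and 0.45 (adjusted p = 0.0329) at p17 on the log2 scale. The peptidase gene Ece1 rose at p17 by 0.55 (adjusted p = 0.0113). The peptidase gene Ide gave -0.42 (adjusted p = 0.0852).

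Downstream, 21 genes of cAMP signalling were examined. At p14, 0 rose and 2 fell, namely Prkar2b, a regulatory subunit of protein kinase A (-0.47, adjusted p = 0.0306), and Rapgef4, a cAMP-activated exchange factor (-0.44, adjusted p = 0.0274). At p17, 2 rose and 5 fell, with a median log2 change of -0.08 over the list. Of all genes tested, 3.18% were called higher and 2.91% lower at p14, and 7.39% and 5.12% at p17. Adcy4, an adenylyl cyclase, rose by 1.97 ± 0.23 (SE, adjusted p = 1.46e-07), from a mean of 74.6 to 292.1 normalized reads, and was the only gene of the list whose effect differed between the ages (1.61, adjusted p = 0.00549). Adcy7 rose by 0.70 (adjusted p = 0.0398). The 5 that fell were Adcy2 (-1.12, adjusted p = 0.0136), the kinase subunits Prkaca (-1.10, adjusted p = 0.0396) and Prkacb (-0.35, adjusted p = 0.000680), Rapgef4 (-0.48, adjusted p = 0.00418) and the phosphodiesterase Pde3a (-0.46, adjusted p = 0.00553). Of 9 genes of receptor trafficking, 0 were called at p14, and at p17 the receptor kinase Grk3 (-0.56, adjusted p = 0.00844) and Nsf, a fusion ATPase (-0.21, adjusted p = 0.0184), fell while Grk2 gave -0.68 (adjusted p = 0.111).

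Since Adm is itself induced by hypoxia, 20 other hypoxia-induced genes were read beside it. At p14, 10 rose and 0 fell, with a median log2 change of 0.53, and at p17, 14 rose and 0 fell, with a median of 0.61. Ndufa4l2, a mitochondrial protein gene, rose by 3.52 in the younger mice (adjusted p = 4.12e-14) and by 4.79 in the older ones (adjusted p = 1.45e-18). Car9, a carbonic anhydrase gene, rose by 3.98 and 4.90 (adjusted p = 1.34e-07 and 1.04e-10), and Egln3, an oxygen sensor gene, by 2.64 and 3.32 (adjusted p = 7.81e-08 and 3.28e-11). Vegfa, the main vessel growth factor, rose by 0.66 (adjusted p = 0.00168) and 1.49 (adjusted p = 4.45e-10). The mean of Car9 was only 0.64 normalized reads in nOIR p17 mice against 39.4 in OIR p17 mice, so the pseudocount of 1 understates its change and its order relative to Adm was not drawn. The effect grew from p14 to p17 in 2 of the 20 genes by the test of the difference, Vegfa (0.83, adjusted p = 0.0116) and Ndufa4l2 (1.28, adjusted p = 0.00193), beside 2.49 for Adm.

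**Figure D5:**
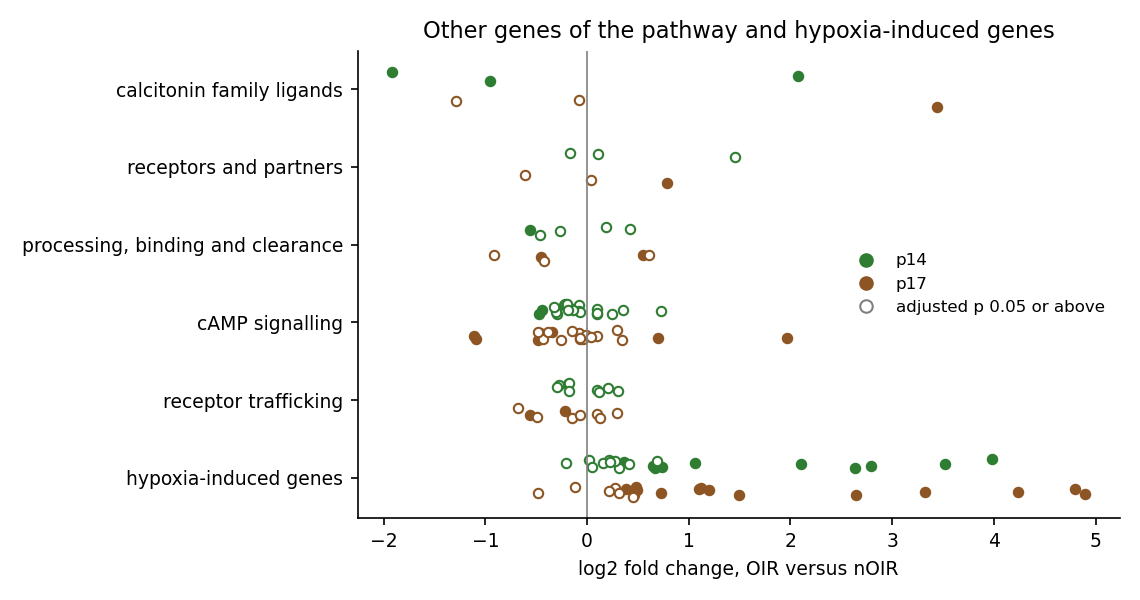
Log2 change in OIR against nOIR mice (horizontal axis) of the other ligands, receptors, processing, cAMP, trafficking and hypoxia-induced genes at p14 (green) and p17 (brown), 1 point a gene, filled for an adjusted p under 0.05. Adm2 at 2.08 and 3.44 and Adcy4 at 1.97 stand apart from their lists, and the called hypoxia-induced genes are all higher.

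The genes most like each member were found by Pearson r of log2 levels over 26 mice, among the 19004 genes that averaged 10 or more normalized reads. These values describe mice that share groups, age and library preparation. Adm was most like Tagln2 (r = 0.976), Ndufa4l2 (0.974), H2-Ab1 (0.973), Litaf (0.967) and Hsd17b2 (0.963). Ramp1 was most like Tubb4a (0.934), Gstt1, Acot7, Pltp and Cck (0.912), and Cck, a neuropeptide gene, had log2 changes of -2.19 at p14 and -2.05 at p17. Ramp2 was most like Ucp2 (0.905) and the endothelial junction gene Cldn5 (0.866), followed by Tubb4b, the pericyte gene Higd1b (0.852) and Ifi35. Ramp3 was most like Edf1 (0.929), Gemin7, Prdx5, Rabac1 and Prcd. Calcrl had no close match, with Glra3 first at 0.726.

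The same was done after the group means were subtracted. Adm was then most like Smyd2 (0.741), and its r with Ramp1 went from -0.752 to 0.006. Ramp2 was most like Rpl22 (0.887), Ifitm2, Rps20 and Rps19, mostly ribosomal protein genes. Ramp3 was most like Mif (0.955), Gpx4, Edf1, Atp5d and Prdx5, and Ramp1 was most like Eri3 (0.807), Sh3yl1, Apoe, Rogdi and Pgap4. Among the members, Ramp2 and Ramp3 were the pair most alike within groups (0.692), followed by Ramp1 and Ramp2 (0.575), while Calcrl gave 0.006 with Ramp2. With the ribosomal protein mean as a covariate, the SE at p17 fell from 0.153 to 0.097 for Ramp2 and from 0.141 to 0.075 for Ramp3. Whether their likeness goes beyond that shared variation was not tested.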

How the data were processed

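Retinal RNA was made into cDNA with a kit that does not mark strand. As the study's methods state, the authors aligned reads to Gencode M28 with STAR 2.7.8a, counted them on genes with featureCounts 2.0.1 and divided the counts by DESeq2 1.34 size factors, so the deposited values are a signal of normalized reads. With 1 factor for each mouse, 100% of values became whole reads (within 0.001 of a read). The deposited group means, log2 fold changes and p-values were not used. In R 4.3.3, limma 3.58.1 (eBayes with trend) was fitted to log2(normalized reads + 1) of genes averaging 1 or more normalized reads, with Benjamini-Hochberg adjustment over 27137 of 40129 genes. On simulated data for OIR p14 against nOIR p14 (200 changed genes, 26771 tested at a log2 change of 1) it recovered 85.5% with 7 false calls. Exact permutation tests were two-sided (scipy 1.17.1, Python 3.11.15). Members and lists were chosen with earlier results of these data known. The genes named are the 5 members, list genes called or with the 3 smallest adjusted p at p17, and the 5 most alike by r, of which some are not reported here. Each group held littermates, by the study's methods, but the litter of each mouse is not given in the sources used here, and p-values take mice as independent. The most alike pair of mice differed by a chi-square of 9.39 per degree of freedom, so none was a copy. Alternatives were another pseudocount or filter, inclusion of S4, fits on 2 groups, a replicate block, other scalings, edgeR 4.0.16, DESeq2 1.42.0, an adjusted p under 0.01, a shorter endothelial list and leaving out each mouse, and, added after seeing the data, log2 Cryaa or the ribosomal protein mean as a covariate.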

Additional observations from a re-analysis of the deposited data

Results flagged for a closer look

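The effect of the model differed between the ages for 2 of the 5 genes, by a contrast in the same limma fit. For Adm the effect at p17 minus that at p14 was 2.49 on the log2 scale (adjusted p = 8.22e-05), and for Ramp2 it was 1.05 (adjusted p = 0.00815). No mouse stood apart from its group by Dixon's test in the 20 combinations of gene and group, where chance marks about 1 in 20.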

How the results depend on the processing

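Of 41 results, 31 kept their direction and their side of the threshold under every alternative run for them. Among these were the Adm and Ramp1 effects at both ages, the Ramp2 effect at p17 and all RAMP ratios. Besides left-out mice, effects of single genes had 12 or 13 alternatives and values beside the endothelial mean had 3. The RAMP ratios had only 2, another pseudocount and inclusion of S4. Leaving out single mice gave 2.86 to 3.22 for Adm at p14 and 5.38 to 5.65 at p17, -2.23 to -2.10 and -1.49 to -1.22 for Ramp1, and 0.61 to 0.78 for Ramp2 at p17. The age effect on Adm in controls was no longer called without a filter (-1.18), on 2 groups only (-1.18), with quantile normalization (-1.18), at an adjusted p under 0.01 (-1.18) or by edgeR (-1.21), and ranged from -1.36 to -1.04 without single mice. Among results not called, Ramp1 between OIR ages was called by edgeR (0.88), by DESeq2 (0.87) and with the ribosomal mean as covariate (0.74), and ranged from 0.55 to 0.81 without single mice, with a call without OIR p17 mouse S2 (adjusted p = 0.0479). The same covariate called Ramp2 at p14 (-0.39) and Ramp3 between OIR ages (0.26), and turned Ramp3 to -0.058 at p17 and to 0.083 between control ages. Without single mice, Ramp3 between control ages ranged from -0.12 to 0.0024 and Calcrl from -0.0013 to 0.18. The Calcrl difference between OIR and nOIR mice then ranged from -0.50 to -0.23 at p14 and from -0.25 to -0.097 at p17, and was never called. Relative to the endothelial mean, leaving out mice gave -0.61 to -0.42 for Ramp2 at p17, -0.26 to -0.13 for Ramp2 at p14, which was called without OIR p14 mouse S1 (adjusted p = 0.0186 by the exact permutation test), and -0.10 to 0.094 for Ramp3 at p14, which was 0.039 with S4. The cause of these changes was not tested.

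Deviations from the group means had a median r of 0.003 over 34 pairs of mice with the same number, 4 above 0.1 and the highest 0.161. For 218 pairs of mice with different numbers the median was -0.001, with 7 above 0.1 and the highest 0.150. These values do not settle whether some mice are paired by number, and the main fit assumed no pairing. With a replicate block, the Adm effects were 3.11 and 5.45 and the Ramp2 effect 0.66 at p17, the age effect on Adm in controls was -1.10 and not called, and Ramp3 at p17 turned to -0.038. The litter and sex of each mouse, and whether a library held 1 or 2 retinas, are not given in the sources used here, so no fit could include them. Mice shared litters in every group, with the fewest litters in the nOIR p17 controls against which OIR p17 mice were tested, and p-values that take mice as independent may be too small.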
